A study of Mus musculus with 8 samples.

Results

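The solute carrier (Slc) genes of the mouse cortex were taken as all probe sets whose single annotated gene symbol begins with Slc and a number, with the brightest probe set kept for each gene. This gave 151 genes, read by 185 of the 12422 probe sets of the array that are no controls. Of these genes, 101 passed the filter on low signals and were tested, and 50 were too dim. By the substrate of their family they fall into 12 neurotransmitter, 10 glucose and sugar, 22 amino acid and 37 ion transporters, 20 mitochondrial carriers of the Slc25 family and 50 others, of which 9, 6, 13, 25, 17 and 31 were tested. The last group also holds 3 proteins that carry an Slc symbol but transport nothing themselves, the PDZ scaffolds Slc9a3r1 and Slc9a3r2 and the adaptor Slc4a1ap.

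RNA came from the cortex of 8 individual C57/bl6 mice aged 4 months, kept in 12 h of light and 12 h of darkness. There were 2 S1/2-/- mice at ZT16, 2 S1/2-/- mice at ZT4, 2 WT mice at ZT16 and 2 WT mice at ZT4, where ZT16 lies in the dark phase, in which mice are mostly awake, and ZT4 in the light phase. S1/2-/- mice carry null alleles of both SHARP1 (Bhlhe41) and SHARP2 (Bhlhe40) in all cells, bred from double heterozygous parents on a C57/bl6 background, and SHARP proteins are basic helix-loop-helix repressors of the circadian clock. No other allele or treatment is labelled in either genotype, and by the methods the mice were male and the cortex was cut from coronal brain slices. Each mouse had 1 Affymetrix array, and signals are MAS5 intensities on a linear scale, with each array scaled to the same trimmed mean of 500. They compare arrays for 1 probe set and do not rank genes against each other.

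Solute carriers move small molecules and ions across membranes. In the cortex, plasma membrane carriers clear glutamate and GABA from the synapse, vesicular carriers load transmitters into synaptic vesicles, glucose carriers pass sugar across the blood-brain barrier and into neurons, and cation chloride cotransporters set the chloride gradient on which inhibition depends. Mitochondrial Slc25 carriers pass nucleotides, phosphate and metabolites across the inner membrane.

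Median signals were 186 to 206 per array, and log2 signals of the 2 replicates in each group had correlations between 0.936 and 0.94. Neuronal and glial markers were present on all arrays, as the label brain cortex requires. Summed signals of 6 oligodendrocyte markers were 23696 to 26081 in S1/2-/- mice at ZT16 and 25808 to 27023 at ZT4, against 20777 to 21322 in WT mice at ZT16 and 15521 to 17145 at ZT4, so all S1/2-/- arrays lay above all WT arrays. The choroid plexus marker Ttr, which encodes transthyretin, gave 102 and 150.4 in S1/2-/- mice at ZT16 and 1456 and 146 at ZT4, against 2582 and 2412 in WT mice at ZT16 and 83.2 and 331 at ZT4. Summed signals of 3 striatal markers were 6361 to 10644 in S1/2-/- mice at ZT16 and 8195 to 12374 at ZT4, against 9047 to 12986 in WT mice at ZT16 and 3501 to 3918 at ZT4, lowest in the WT mice at ZT4. Only these 3 of 7 listed markers were read, and Penk made up most of each sum. Drd2, like Penk, was lowest in the WT mice at ZT4. The dim marker Rgs9 did not follow the sum at ZT16, with 33.7 and 54.6 in S1/2-/- mice and 7.13 and 9.69 in WT mice. The share of neighbouring tissue in a sample and the group cannot be told apart with 2 mice per group. In these bulk samples a smaller number of cells of a type and less RNA per cell cannot be told apart either. The Bhlhe40 probe set gave 1043 and 889 in S1/2-/- mice at ZT16 and 913 and 834 at ZT4, against 1188 and 1285 in WT mice at ZT16 and 1074 and 983 at ZT4. No source used here says where it lies relative to the deleted part, and it does not serve as a check of the genotype labels.

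The first question was whether loss of both SHARP proteins shifted solute carrier expression. Across ZT16 and ZT4 together, 51 of the 101 tested genes were higher and 50 lower in S1/2-/- than in WT cortex, with a median log2 difference of 0.012, against 0.0018 over all 7453 tested probe sets. Calls required that a gene pass 1.5-fold and an adjusted p of 0.05 in limma, and no solute carrier gene was called, while 0.255% of all tested probe sets were. At an unadjusted p under 0.05, 8 members were higher and 7 lower in S1/2-/- mice, that is 7.92% and 6.93% of the members, beside 6.44% and 5.94% of all probe sets. The median size of the difference was 0.16 on the log2 scale for the members and 0.14 for all probe sets, and the median standard deviation between replicates was 0.20 and 0.20.

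At ZT16 alone, no member was called (background 0.0134%), and 9 (8.91%) were higher and 4 (3.96%) lower by the unadjusted p, where 5.73% and 5.21% of all probe sets were. At ZT4 alone no member was called (background 0.0939%), with 5 (4.95%) higher and 2 (1.98%) lower (background 4.04% and 3.25%). These shares stayed close enough to the background that they are no result about the members. The intervals limit the differences that could have gone unseen. For 61 of the 101 members the whole 95% interval of the difference averaged over both times lay within a 1.5-fold change in either direction, and for 40 at ZT16 and 41 at ZT4. Mitochondrial carriers were measured more tightly than ion transporters, with 14 of 17 inside these limits, against 13 of 25 ion transporters.

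**Figure D1:**
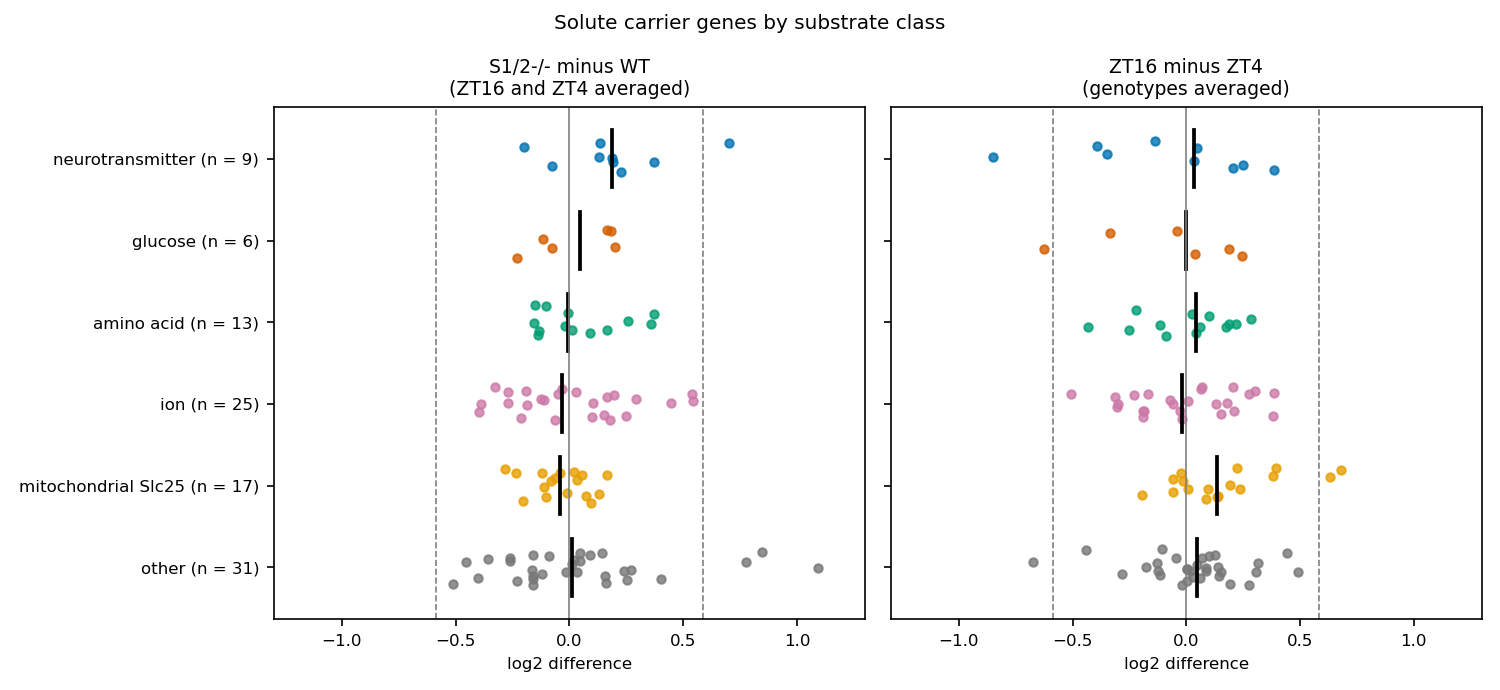
Log2 differences of the 101 tested solute carrier genes by substrate class, 1 point per gene, for S1/2-/- minus WT averaged over both times (left) and ZT16 minus ZT4 averaged over the genotypes (right). Black bars are class medians and dashed lines mark a 1.5-fold change; the neurotransmitter median is 0.19 on the left and the mitochondrial median 0.13 on the right, and few points pass the dashed lines.

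Genes read apart by every array were few. All 4 S1/2-/- arrays lay above all 4 WT arrays for 5 members, or 4.95% (background 3.43%), and below them for 2, or 1.98% (background 3.74%). The 5 higher ones were the glutamate transporter Slc1a2, the scaffold Slc9a3r2, the magnesium transporter Slc41a1, the potassium chloride cotransporter Slc12a7 and the sugar transporter Slc2a8. The 2 lower ones were the anion exchanger Slc4a3 and Slc35a1, which carries CMP-sialic acid into the Golgi. Slc12a7, Slc2a8 and Slc35a1 are named after their values were seen. Slc2a8 gave 739 and 774 in S1/2-/- mice at ZT16 and 717 and 749.8 at ZT4, against 605 and 639 in WT mice at ZT16 and 652 and 703 at ZT4. The sets did not overlap, but the difference was only 1.15-fold and did not pass the test (adjusted p = 0.443 in limma). On the other, dimmer probe set of Slc2a8 the difference over both times was 0.23, in the same direction. By time it was -0.59 at ZT16, opposite in sign, and 1.05 at ZT4.

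SHARP proteins bind the E-box CACGTG, so the promoters of the members were searched for these letters. Of the 151 genes, 124 had promoter windows in RefSeq (GRCm38.p6), each running from 250 bases before to 50 bases after a start site, 175 windows in all. The letters CACGTG, which read the same on both strands, were in the windows of 20 of the 124 genes, or 16.1%, and of 8.09% of all 27025 genes with a window. Counted by window the shares were 12.6% and 7.15%. The variant CACGTT, or AACGTG on the other strand, was in the windows of 7 member genes, or 5.65%, and of 5.44% of all genes. A match is a description of the letters and not a binding site. The sequences around the letters and before the start site are shown for 6 genes of the results, which are the landmarks Slc12a5, Slc29a1, Slc16a1 and Slc3a2, the mitochondrial carrier Slc25a14 and Slc12a7, whose genotypes did not overlap. They run 5′ to 3′ on the strand of the gene, with the E-box letters in capitals.
Slc12a5, chr2:164967892-164967987, plus strand: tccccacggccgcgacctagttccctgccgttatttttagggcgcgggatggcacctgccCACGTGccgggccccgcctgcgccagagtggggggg
Slc29a1, chr17:45595256-45595381, minus strand: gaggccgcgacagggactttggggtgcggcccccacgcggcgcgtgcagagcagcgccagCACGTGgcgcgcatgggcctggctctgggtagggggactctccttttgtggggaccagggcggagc
Slc25a14, chrX:48623334-48623447, plus strand: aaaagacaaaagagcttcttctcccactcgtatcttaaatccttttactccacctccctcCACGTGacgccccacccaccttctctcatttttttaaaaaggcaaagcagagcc
Slc12a7, chr13:73763599-73763696, plus strand: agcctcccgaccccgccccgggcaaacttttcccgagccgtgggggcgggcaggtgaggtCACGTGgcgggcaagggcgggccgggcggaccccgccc
Slc16a1, chr3:104638414-104638529, plus strand: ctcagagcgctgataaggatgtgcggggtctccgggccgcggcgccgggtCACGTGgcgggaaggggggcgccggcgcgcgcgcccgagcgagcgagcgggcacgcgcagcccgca
Slc3a2, chr19:8713996-8714121, minus strand: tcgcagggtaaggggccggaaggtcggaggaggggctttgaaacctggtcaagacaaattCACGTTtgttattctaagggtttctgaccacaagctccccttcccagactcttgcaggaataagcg

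The first base of the E-box letters lies 36 bases before the start site in Slc12a5, 75 in Slc29a1, 54 in Slc25a14, 38 in the window shown of Slc12a7, 200 in Slc16a1 and 164 in Slc3a2. Slc41a1 holds CACGTT just after its start site, in a stretch not shown. Of the 12 tested members with CACGTG, 5 were higher and 7 lower in S1/2-/- than in WT cortex over both times, with a median of -0.11, against 0.0018 for all tested probe sets. Genes with these letters thus lay on both sides of 0 and covered log2 differences of -0.27 to 0.54.

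Among neurotransmitter transporters 7 of 9 were higher and 2 lower in S1/2-/- cortex over both times, with a median log2 difference of 0.19, against 0.0018 over all probe sets. The class had medians of 0.16 at ZT16 and 0.042 at ZT4. Its largest difference was that of Slc1a2, the astrocyte transporter GLT-1 that takes up most synaptic glutamate. Slc1a2 gave 488 and 514 in S1/2-/- mice at ZT16 and 679 and 497 at ZT4, against 368 and 202 in WT mice at ZT16 and 386 and 425 at ZT4. All S1/2-/- signals were above all WT signals, and replicate 2 of the WT mice at ZT16 was the lowest. Over both times Slc1a2 was 1.62-fold as bright in S1/2-/- as in WT cortex (log2 difference 0.70, standard error 0.19, adjusted p = 0.225 in limma), which did not pass the adjusted threshold. The differences were 0.88 at ZT16 (95% interval 0.27 to 1.49) and 0.52 at ZT4 (95% interval -0.092 to 1.13).

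Over both times Slc1a2 was called only without replicate 1 of the WT mice at ZT16, with a log2 difference of 0.92. That fit keeps replicate 2, the array lowest for Slc1a2, as the lone mouse of its group. Without replicate 2 instead, the difference was 0.48, which is under 1.5-fold. Summed signals of 6 astrocyte markers were 17993 to 18359 in S1/2-/- mice at ZT16 and 17074 to 18711 at ZT4, against 15932 to 19078 in WT mice at ZT16 and 16389 to 17602 at ZT4. These sums overlapped between the genotypes, but Aldoc, a glycolytic enzyme of astrocytes, stood out at 12235 on replicate 2 of the WT mice at ZT16, the array with the lowest Slc1a2 signal. Without Aldoc, which was left out after its value was seen, the sums were 8406 and 9403 in S1/2-/- mice at ZT16 and 9869 and 8089 at ZT4, against 7605 and 6843 in WT mice at ZT16 and 8748 and 7446 at ZT4. Then that array was the lowest, but the genotypes still overlapped. Of the 6 markers 4 were higher in S1/2-/- mice over both times, while Aldoc (-0.060) and Glul (-0.21) were lower. Gfap, the intermediate filament of astrocytes, gave 1378 and 1150.4 in S1/2-/- mice at ZT16 and 958 and 1057 at ZT4, against 510.5 and 667 in WT mice at ZT16 and 388 and 508 at ZT4, with no overlap. The array lowest for Slc1a2 also had the lowest sum of 4 glutamatergic markers, 9804, where the other arrays had 12095 to 14835. The part of cell makeup in the Slc1a2 difference was not tested.

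The neuronal glutamate and cysteine transporter Slc1a1, the other landmark of the glutamate carriers on the array, was less variable. It gave 1075 and 1055 in S1/2-/- mice at ZT16 and 966 and 893 at ZT4, against 911 and 767 in WT mice at ZT16 and 911 and 914 at ZT4. Both S1/2-/- mice at ZT16 lay above all other arrays, but the difference at ZT16 did not pass (log2 difference 0.35, standard error 0.14, adjusted p = 0.391). A dimmer probe set of Slc1a1 had differences of 0.59 at ZT16 and 0.15 at ZT4 in the same direction.

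Slc32a1, the vesicular transporter that loads GABA and glycine, gave 1740.5 and 2539 in S1/2-/- mice at ZT16 and 2278 and 2621 at ZT4, against 2171 and 2448 in WT mice at ZT16 and 1762 and 1951 at ZT4. At ZT4 both S1/2-/- mice were above both WT mice (log2 difference 0.40, standard error 0.17, adjusted p = 0.651), and at ZT16 the groups overlapped (-0.13). Summed signals of 4 other GABAergic markers were 15483 and 16671 in S1/2-/- mice and 15058 and 15455 in WT mice at ZT4, which nearly touched, and the striatal sums, which rest on GABAergic neurons too, were also higher in S1/2-/- mice at that time. Their part in the Slc32a1 difference was not tested. On its brighter probe set the taurine transporter Slc6a6 also separated the genotypes at ZT4, with 1718 and 1753 in S1/2-/- mice and 1409 and 1454 in WT mice (log2 difference 0.28, adjusted p = 0.629). At ZT16 it gave 1467 and 1501 in S1/2-/- mice and 1474 and 1297 in WT mice, which overlapped. A second, dimmer probe set of Slc6a6 had differences of 1.16 at ZT16 and -0.32 at ZT4, so the probe sets disagree at ZT4. The monoamine carriers Slc6a2, Slc6a3 and Slc6a4 act in fibres whose cell bodies lie outside the cortex. Slc6a3 was too dim to test, and Slc6a2 (0.37) and Slc6a4 (-0.20) had intervals of -0.63 to 1.38 and -0.98 to 0.58 over both times, which both hold 0. Their other, dimmer probe sets had 0.19 for Slc6a2 and 0.44 for Slc6a4, so the probe sets of Slc6a4 disagree in sign. The landmarks Slc1a3, Slc6a11, Slc17a6, Slc17a7 and Slc18a2 were not analysed here.

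Glucose and sugar transporters had 3 of 6 tested members higher and 3 lower in S1/2-/- cortex, with a median of 0.045. Slc2a1 encodes GLUT1, the transporter of the blood-brain barrier and of astrocytes. It gave 798 and 794 in S1/2-/- mice at ZT16 and 602 and 584 at ZT4, against 733 and 853 in WT mice at ZT16 and 835 and 806 at ZT4. The S1/2-/- mice at ZT4 were below all other arrays, and the remaining groups overlapped. Slc2a1 was lower in S1/2-/- than in WT cortex at ZT4 by 1.38-fold (log2 difference -0.47, standard error 0.14, adjusted p = 0.450) and nearly level at ZT16 (0.010, 95% interval -0.30 to 0.32). Neither passed the adjusted threshold in limma. Summed signals of 6 endothelial markers at ZT4 were 1860 to 1970 in S1/2-/- mice, against 1607 to 1841 in WT mice, and their part in the Slc2a1 difference was not tested.

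Slc2a3, the neuronal glucose transporter GLUT3, gave 1429 and 1231 in S1/2-/- mice at ZT16 and 1281 and 1147 at ZT4, against 1213 and 1323 in WT mice at ZT16 and 877 and 1108 at ZT4. Signals of the WT mice at ZT4 were the lowest, and the genotypes overlapped over both times (log2 difference 0.18, standard error 0.11, adjusted p = 0.517). A second probe set of Slc2a3 gave 548 and 498 in S1/2-/- mice at ZT16 and 538 and 513 at ZT4, against 481 and 472 in WT mice at ZT16 and 421 and 544 at ZT4, with a difference of 0.13. The sugar transporter Slc50a1 had a difference of -0.075 (95% interval -0.32 to 0.17), and Slc37a4, which brings glucose phosphate into the endoplasmic reticulum, one of 0.17 (95% interval -0.090 to 0.42). Slc2a2, Slc2a4, Slc5a1 and Slc5a11 were too dim to test.

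**Figure D2:**
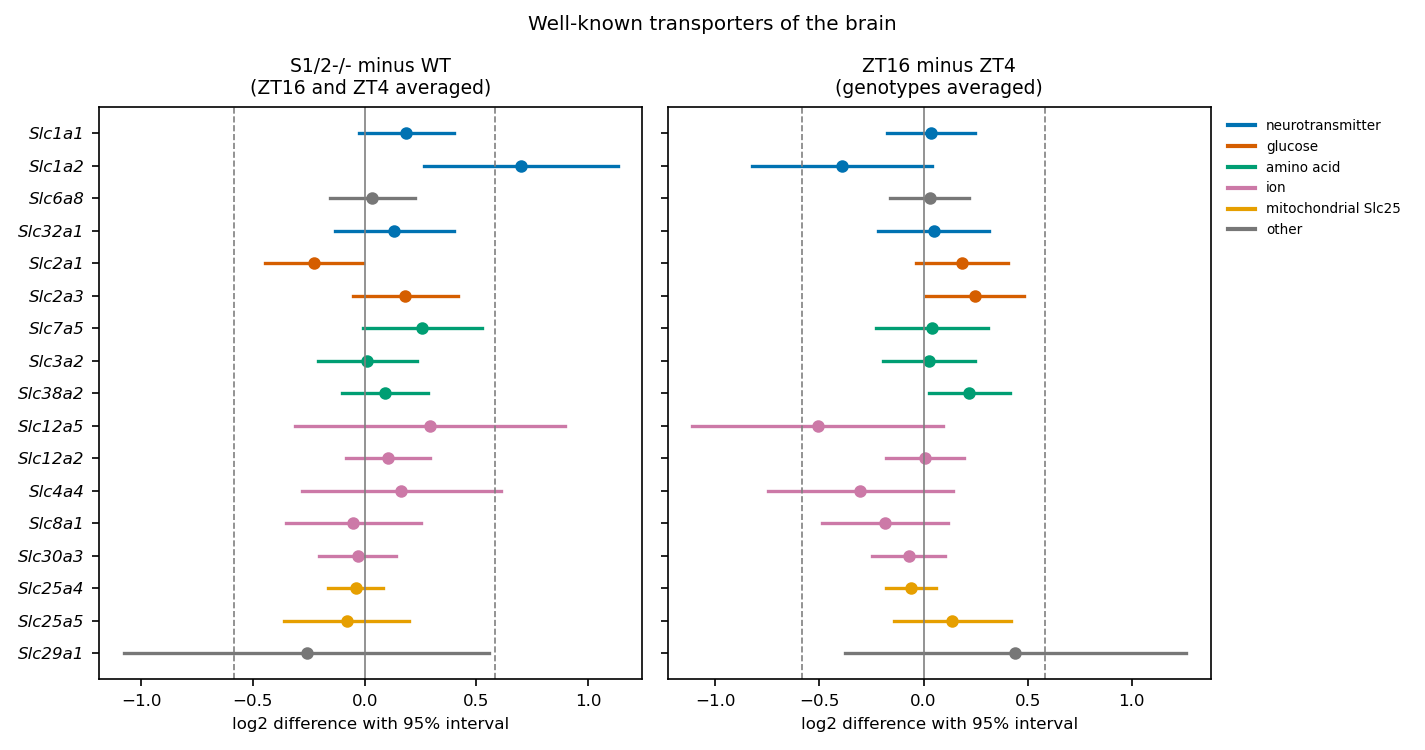
Log2 differences with 95% intervals of the 17 landmark transporters that were tested, coloured by substrate class, for S1/2-/- minus WT averaged over both times (left) and ZT16 minus ZT4 averaged over the genotypes (right). Dashed lines mark a 1.5-fold change; Slc25a4 has the narrowest interval on the left, -0.16 to 0.082, and Slc29a1 the widest, -1.08 to 0.56.

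Amino acid transporters were balanced, with 6 of 13 tested members higher and 7 lower in S1/2-/- cortex and a median of -0.0052. Slc7a5 (LAT1), which carries large neutral amino acids across the blood-brain barrier, gave 1167 and 1050.2 in S1/2-/- mice at ZT16 and 818 and 1120.1 at ZT4, against 837 and 811 in WT mice at ZT16 and 824 and 979 at ZT4. At ZT16 both S1/2-/- signals were above both WT signals (log2 difference 0.43, standard error 0.17, adjusted p = 0.398), and at ZT4 the genotypes overlapped. Its heavy chain partner Slc3a2 gave 2234 and 2277 in S1/2-/- mice at ZT16 and 2117 and 2288 at ZT4, against 1899 and 2599.8 in WT mice at ZT16 and 2180.2 and 2217 at ZT4, and its difference over both times was 0.012 (95% interval -0.21 to 0.23). Slc3a2 is the gene whose promoter window holds the variant letters shown above, and its whole interval lies within a 1.5-fold change. The serine and alanine exchanger Slc1a4 was -0.14 (95% interval -0.35 to 0.076), and Slc38a2, a sodium-coupled carrier of small neutral amino acids, 0.092 (95% interval -0.10 to 0.28). None of the 13 passed an unadjusted p under 0.05 over both times, with a background of 6.44% higher and 5.94% lower.

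Ion transporters had 12 of 25 tested members higher and 13 lower in S1/2-/- cortex over both times, with a median of -0.032. The sodium magnesium exchanger Slc41a1 gave 1003 and 968 in S1/2-/- mice at ZT16 and 851 and 1029 at ZT4, against 846 and 815 in WT mice at ZT16 and 698 and 513 at ZT4. All S1/2-/- signals were above all WT signals, by 1.36-fold over both times (log2 difference 0.45, standard error 0.12, adjusted p = 0.214). The gap was 0.25 at ZT16 and 0.65 at ZT4, and the WT mice at ZT4 were the lowest. The anion exchanger Slc4a3, which helps regulate the pH of neurons, differed the other way. It gave 2333 and 2314 in S1/2-/- mice at ZT16 and 2421 and 2209 at ZT4, against 2484 and 3447 in WT mice at ZT16 and 2702 and 2648 at ZT4, so every S1/2-/- mouse lay below every WT mouse (log2 difference -0.27, standard error 0.10, adjusted p = 0.320).

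Chloride cotransporters take opposite roles, since Slc12a2 (NKCC1) brings chloride into cells and Slc12a5 (KCC2) moves it out of neurons. Slc12a2 gave 1837 and 1955 in S1/2-/- mice at ZT16 and 2007 and 2315 at ZT4, against 2131 and 1909 in WT mice at ZT16 and 1677 and 1839.9 at ZT4. Both S1/2-/- mice at ZT4 were above the WT mice of that time (log2 difference 0.30, standard error 0.12, adjusted p = 0.626), and at ZT16 the genotypes overlapped (-0.090). Slc12a5 gave 205 and 199 in S1/2-/- mice at ZT16 and 179.6 and 235 at ZT4, against 174 and 80.0 in WT mice at ZT16 and 210.1 and 262 at ZT4. Replicate 2 of the WT mice at ZT16 was far below the other 7 arrays, and it was also the lowest for Slc1a2 and in the sum of glutamatergic markers given above. Camk2a, a kinase of these neurons, gave 617 and 210.3 in the WT mice at ZT16. The part of neuronal makeup was not tested. The difference of Slc12a5 was 0.29 over both times (95% interval -0.31 to 0.89), an interval that holds 0. The related Slc12a7, a potassium chloride cotransporter with CACGTG letters close to its start site, gave 155 and 155 in S1/2-/- mice at ZT16 and 133 and 137 at ZT4, against 132 and 112 in WT mice at ZT16 and 73.3 and 91.8 at ZT4 and had a difference of 0.54 (adjusted p = 0.447). Its mean log2 signal over the WT arrays alone lay below the filter, so Slc12a7 was tested only through its S1/2-/- signals.

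Among the metal carriers, Slc39a4 (ZIP4), a zinc importer, gave 458 and 439 in S1/2-/- mice at ZT16 and 441 and 199 at ZT4, against 159 and 199 in WT mice at ZT16 and 322 and 383 at ZT4. At ZT16 both S1/2-/- mice were above both WT mice (log2 difference 1.34, standard error 0.33, adjusted p = 0.263). The probe set is of a kind designed with relaxed rules, and the second probe set of the gene gave 120.4 and 168 in S1/2-/- mice at ZT16 and 134 and 115 at ZT4, against 154 and 149 in WT mice at ZT16 and 103 and 229 at ZT4, with a difference of -0.092 at ZT16. The probe sets of Slc39a4 thus disagree. Slc11a2 (DMT1), which carries iron and other divalent metals, gave 294 and 252 in S1/2-/- mice at ZT16 and 358 and 456 at ZT4, against 473 and 417 in WT mice at ZT16 and 422 and 358 at ZT4. At ZT16 both S1/2-/- mice lay below both WT mice (log2 difference -0.71, standard error 0.21, adjusted p = 0.318), while its second probe set, with 374 and 255 in S1/2-/- mice at ZT16 and 264 and 349 at ZT4, against 251 and 323 in WT mice at ZT16 and 224 and 313 at ZT4, had a difference of 0.12. These also disagree. The vesicular zinc transporter Slc30a3 (ZnT3) of glutamatergic terminals had differences of 0.18 at ZT16 and -0.24 at ZT4, and -0.032 over both times (95% interval -0.21 to 0.14).

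The landmark Slc8a1, a sodium calcium exchanger, had a difference of -0.052 (95% interval -0.35 to 0.25), and the sodium bicarbonate cotransporter Slc4a4 of astrocytes one of 0.16 (95% interval -0.28 to 0.61). Slc4a5, a bicarbonate cotransporter of the choroid plexus that is named after its values were seen, was too dim for the main test. It gave 2.94 and 5.54 in S1/2-/- mice at ZT16 and 10.1 and 5.02 at ZT4, against 48.7 and 39.6 in WT mice at ZT16 and 3.64 and 5.01 at ZT4. Only the WT mice at ZT16 stood out, and in the fit without a filter the difference at ZT16 was -3.45 (adjusted p = 0.347 in limma). Signals of the other 3 groups were at the low end of the scale, so the size of this difference is uncertain. The choroid plexus markers Ttr, Kl and Folr1 were highest on the same 2 arrays, while Igfbp2 was not. Kl gave 12.4 and 13.1 in S1/2-/- mice at ZT16 and 178 and 12.1 at ZT4, against 399.8 and 213 in WT mice at ZT16 and 12.4 and 24.9 at ZT4. Summed signals of the 4 choroid plexus markers on the array were 1245 to 1368 in S1/2-/- mice at ZT16 and 1640 to 3059 at ZT4, against 3845 to 4373 in WT mice at ZT16 and 971 to 1526 at ZT4, and their part in the Slc4a5 signal was not tested.

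Mitochondrial carriers differed little between genotypes, with 7 of 17 higher and 10 lower in S1/2-/- cortex, a median of -0.040 and single values between -0.28 and 0.17. The ADP/ATP carrier Slc25a4, which exports ATP from mitochondria, gave 12293 and 13459 in S1/2-/- mice at ZT16 and 13973 and 13589 at ZT4, against 13250.0 and 13942 in WT mice at ZT16 and 14014 and 13576 at ZT4. Its highest signal was 1.14 times its lowest, the narrowest span of all 101 tested members, and its difference was -0.040 (95% interval -0.16 to 0.082). The second ADP/ATP carrier, Slc25a5, had a difference of -0.080 (95% interval -0.36 to 0.20) on a probe set that reads a family of like sequences, 0.33 on a second probe set and 0.096 on a dim one.

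Slc25a11, the carrier of oxoglutarate and malate, gave 1855 and 1999 in S1/2-/- mice at ZT16 and 1713 and 1738 at ZT4, against 2165 and 2202 in WT mice at ZT16 and 1837 and 2232 at ZT4. Its S1/2-/- signals were mostly the lower ones, though the genotypes overlapped (log2 difference -0.21, standard error 0.084, adjusted p = 0.362). Slc25a14, an uncoupling protein of the brain whose promoter letters are shown above, gave 714 and 742 in S1/2-/- mice at ZT16 and 524 and 600.0 at ZT4, against 723 and 836 in WT mice at ZT16 and 780.2 and 681 at ZT4. Both S1/2-/- mice at ZT4 were below all other arrays (log2 difference -0.38, standard error 0.15, adjusted p = 0.629 at ZT4). Slc25a39, which imports glutathione into mitochondria, had a difference of -0.065 (95% interval -0.29 to 0.16). The phosphate carrier Slc25a3, a landmark, was too dim to test here, with signals of 49.8 and 54.5 in S1/2-/- mice at ZT16 and 51.3 and 217 at ZT4, against 71.8 and 149.7 in WT mice at ZT16 and 134 and 45.7 at ZT4.

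The remaining carriers had 16 of 31 tested members higher and 15 lower in S1/2-/- cortex, with a median of 0.012, and held the lowest p of all members. Slc9a3r2 (NHERF2), a scaffold that anchors membrane transporters and receptors, gave 399.9 and 322 in S1/2-/- mice at ZT16 and 293 and 358 at ZT4, against 233 and 173 in WT mice at ZT16 and 202 and 193 at ZT4. Every S1/2-/- mouse was above every WT mouse, by 1.71-fold (log2 difference 0.78, standard error 0.18, adjusted p = 0.141), and the gap was 0.84 at ZT16 and 0.71 at ZT4. It was called only without replicate 1 of the WT mice at ZT16, at 0.88 (adjusted p = 0.0496; range over all alternatives 0.0496 to 0.410). The oligodendrocyte marker sums also separate the genotypes, but with the larger gap at ZT4. The median log2 difference of these markers was 0.32 at ZT16 and 0.82 at ZT4. Their part in the Slc9a3r2 difference was not tested.

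Slc16a8 (MCT3), a lactate transporter known from the retinal pigment epithelium and the choroid plexus, gave 223 and 129 in S1/2-/- mice at ZT16 and 198 and 131 at ZT4, against 51.4 and 43.4 in WT mice at ZT16 and 101 and 159 at ZT4. Low signals in both WT mice at ZT16 set its difference of 1.84 at that time (standard error 0.47, adjusted p = 0.269), while at ZT4 the genotypes overlapped (0.34). Its mean log2 signal over all arrays lay close to the filter, and that over the WT arrays alone lay below it. Slc16a8 was thus tested only through its higher S1/2-/- signals. The 2 arrays with the lowest Slc16a8 signals had the highest choroid plexus sums. Slc22a5 (OCTN2), which takes up carnitine, also had its lowest signals in the WT mice at ZT16, with 149 and 226 in S1/2-/- mice at ZT16 and 209.8 and 155 at ZT4, against 87.0 and 62.6 in WT mice at ZT16 and 160.0 and 120.1 at ZT4 (log2 difference 1.31, standard error 0.40, adjusted p = 0.333 at ZT16). The mean log2 signal of Slc22a5 over the WT arrays alone was likewise below the filter. Slc35g3, of the nucleotide sugar transporter family, gave 449 and 439.6 in S1/2-/- mice and 258 and 228 in WT mice at ZT16 (log2 difference 0.87, standard error 0.24, adjusted p = 0.317).

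Several carriers with a clear signal were measured closely. Slc22a17, a brain member of the organic cation family, gave 7294 and 7309 in S1/2-/- mice at ZT16 and 6443 and 7033 at ZT4, against 6843 and 7911 in WT mice at ZT16 and 6605 and 6539.6 at ZT4, and its difference of 0.012 had a 95% interval of -0.14 to 0.16. The creatine transporter Slc6a8 had a difference of 0.034 (95% interval -0.16 to 0.22), the ascorbate transporter Slc23a2 one of 0.090 (95% interval -0.13 to 0.31) and Slc35b1, which brings ATP into the endoplasmic reticulum, one of 0.16 (95% interval -0.040 to 0.37). For these 4 genes a 1.5-fold difference in either direction lies outside the interval. The nucleoside transporter Slc29a1 was measured poorly, with 219 and 215 in S1/2-/- mice at ZT16 and 73.3 and 205 at ZT4, against 302 and 132 in WT mice at ZT16 and 159 and 230.1 at ZT4 and an interval of -1.08 to 0.56. Its second probe set, which was dim, had a difference of 0.71, that of Slc6a8 one of -0.30, and those of the exchanger Slc8a1 -0.99 and -1.14. The lactate and ketone carrier Slc16a1 was too dim to test, with 73.9 and 23.1 in S1/2-/- mice at ZT16 and 71.6 and 55.2 at ZT4, against 27.0 and 60.1 in WT mice at ZT16 and 137 and 78.2 at ZT4.

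**Figure D3:**
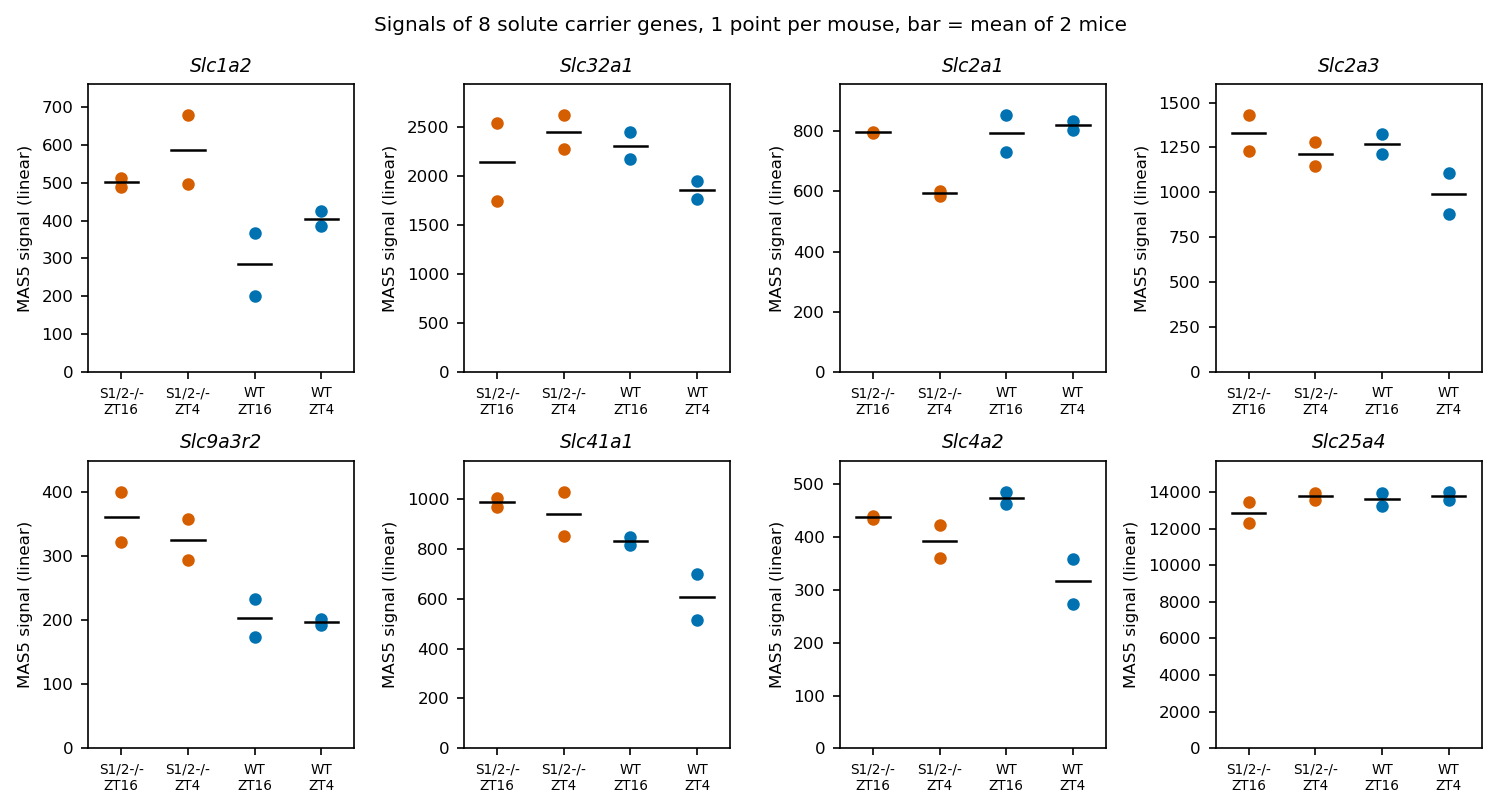
MAS5 signals of 8 solute carrier genes, 1 point per mouse, with the S1/2-/- groups (orange) left of the WT groups (blue) and ZT16 left of ZT4; bars are means of 2 mice and axes start at 0. Slc1a2, Slc9a3r2 and Slc41a1 have all S1/2-/- points above all WT points, Slc2a1 is low in the S1/2-/- mice at ZT4 alone (602 and 584), and Slc25a4 is flat.

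Bhlhe40 and Bhlhe41 both lie on chromosome 6, and effects on probe matches in sequence that flanks a null allele were not tested. From this chromosome the members Slc2a3, Slc6a6 and Slc6a13, a GABA transporter of the meninges, were tested, and their differences over both times were 0.18, 0.19 and -0.076. None of the 3 was called.

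The second question was whether solute carrier expression differed between ZT16 and ZT4. With the genotypes averaged, 61 of 101 members were higher at ZT16 and 40 lower, with a median of 0.042, against -0.0041 over all probe sets. No member was called, as no probe set of the array was (background 0%). At an unadjusted p under 0.05, 7 members (6.93%) were higher and 3 (2.97%) lower at ZT16 (background 5.34% and 4.04%). In S1/2-/- mice no member was called (background 0%), with 6 (5.94%) higher and 1 (0.99%) lower by the same unadjusted threshold (background 4.33% and 2.98%). In WT mice none was called either (background 0.0134%), with 5 (4.95%) higher and 6 (5.94%) lower (background 3.93% and 3.68%).

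All 4 arrays at ZT16 were above all 4 at ZT4 for 6 members, or 5.94% (background 2.78%), and below them for 1, or 0.99% (background 2.28%). The 6 were Slc25a10, Slc25a39, Slc25a45, Slc38a2, Slc4a2 and Slc35d1, the last named after its values were seen, and the 1 was Slc37a4. Mitochondrial carriers had the highest median of the 6 classes. At ZT16 12 of 17 were higher and 5 lower, and their median was 0.13. In S1/2-/- mice alone 12 of 17 were higher (median 0.14, against -0.0027 over all probe sets), and in WT mice 14 of 17 (median 0.12, against -0.0027). No test of the class was made.

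The dicarboxylate carrier Slc25a10, which exchanges malate and succinate for phosphate, gave 236 and 235 at ZT16 and 188 and 86.7 at ZT4 in S1/2-/- mice, against 211 and 216 at ZT16 and 176 and 152 at ZT4 in WT mice. All ZT16 signals were above all ZT4 signals (log2 difference 0.63, standard error 0.26, adjusted p = 0.484), and 1 low S1/2-/- mouse at ZT4 widens the gap. Slc25a45 gave 209 and 294 at ZT16 and 118 and 178 at ZT4 in S1/2-/- mice, against 219.9 and 220.1 at ZT16 and 122 and 177 at ZT4 in WT mice (log2 difference 0.68, standard error 0.24, adjusted p = 0.421). The NAD carrier Slc25a51 gave 667 and 664 at ZT16 and 399.6 and 403 at ZT4 in S1/2-/- mice (log2 difference 0.73, standard error 0.24, adjusted p = 0.552), against 663 and 389.7 at ZT16 and 558 and 426 at ZT4 in WT mice. Its replicates in S1/2-/- mice were close to each other, but its other probe set had a difference of -0.0026 there. The ADP/ATP carrier Slc25a4 had a difference of -0.060 (95% interval -0.18 to 0.062), on the other side of 0 from most of its class.

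Among amino acid carriers Slc38a2 gave 1613 and 1448 at ZT16 and 1408 and 1401 at ZT4 in S1/2-/- mice, against 1650.3 and 1427 at ZT16 and 1197 and 1264 at ZT4 in WT mice. All arrays at ZT16 were above all at ZT4 (log2 difference 0.22, standard error 0.087, adjusted p = 0.459), with a gap of 0.12 in S1/2-/- mice and 0.32 in WT mice, a contrast that itself did not pass (adjusted p = 0.913). The 3 further probe sets of Slc38a2 were too dim to test, with differences of -0.024, 1.05 and -0.18 over both genotypes. Slc37a4 was the member with all signals at ZT16 below all at ZT4. It gave 591 and 613 at ZT16 and 677 and 819.8 at ZT4 in S1/2-/- mice, against 557 and 496 at ZT16 and 631 and 728 at ZT4 in WT mice (log2 difference -0.34, standard error 0.11, adjusted p = 0.417). Slc2a3 had a difference of 0.25 (adjusted p = 0.501) on its brighter probe set and of -0.0068 on the other.

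The anion exchanger Slc4a2 gave 441 and 435 at ZT16 and 362 and 422 at ZT4 in S1/2-/- mice, against 486 and 463 at ZT16 and 273 and 359.6 at ZT4 in WT mice (log2 difference 0.38, standard error 0.14, adjusted p = 0.440). Most of the difference came from WT mice (0.60), whose choroid plexus marker sums given above were also higher at ZT16. In S1/2-/- mice those sums were lower at ZT16, 1245 to 1368 against 1640 to 3059 at ZT4, while both Slc4a2 signals were higher. The choroid plexus is a known site of this exchanger, and its part was not tested. The heme transporter Slc48a1 gave 579.8 and 414 at ZT16 and 505 and 484 at ZT4 in S1/2-/- mice (log2 difference -0.013), against 689.8 and 684 at ZT16 and 371 and 531 at ZT4 in WT mice (log2 difference 0.63, standard error 0.22, adjusted p = 0.625). Among the chloride cotransporters Slc12a5 had differences of -0.024 in S1/2-/- mice and of -0.99 in WT mice, where 1 of the 2 mice at ZT16 was low. Slc12a2 had differences of -0.19 in S1/2-/- mice and of 0.20 in WT mice.

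Lower signals at ZT16 were also read for some dimmer genes, named after their values were seen. The noradrenaline transporter Slc6a2 gave 79.0 and 99.2 at ZT16 and 218 and 157 at ZT4 in S1/2-/- mice, against 75.9 and 83.1 at ZT16 and 57.5 and 264 at ZT4 in WT mice (log2 difference -0.85, standard error 0.45, adjusted p = 0.587). Its WT mice at ZT4 were the lowest and the highest of all arrays, so WT groups overlapped. The mean log2 signal of Slc6a2 lay close to the filter, and all its signals at ZT16 lay below it. Slc6a2 was thus tested only through its signals at ZT4. On the other, dimmer probe set of Slc6a2 the difference was 0.28, opposite in sign, with 0.80 in S1/2-/- and -0.24 in WT mice. The fructose transporter Slc2a5, found in microglia, gave 113 and 197 at ZT16 and 247 and 219 at ZT4 in S1/2-/- mice, against 190.0 and 141 at ZT16 and 190.1 and 328 at ZT4 in WT mice (log2 difference -0.63, standard error 0.27, adjusted p = 0.492). Summed signals of the microglial markers on the array were 5814 to 6171 at ZT16 and 5461 to 5825 at ZT4 in S1/2-/- mice, against 5314 to 6056 at ZT16 and 4724 to 5600 at ZT4 in WT mice, and their part was not tested.

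The third question was whether the difference between ZT16 and ZT4 depended on the genotype. No member was called for the difference of the changes (background 0%). At an unadjusted p under 0.05, 6 members had a higher change in S1/2-/- than in WT mice and 2 a lower one, or 5.94% and 1.98% (background 2.74% and 2.95%). The median over the members was -0.0013, against 0.0095 over all probe sets. Only 18 of 101 intervals lay within a 1.5-fold change, so this contrast was the least precise of the 7.

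Slc39a4 had the lowest p. It differed by 0.60 between ZT16 and ZT4 in S1/2-/- mice and by -0.98 in WT mice (log2 difference 1.58, standard error 0.47, adjusted p = 0.701 for the difference of the changes), with the disagreement of its probe sets given above. Slc35g3 differed by 0.62 in S1/2-/- mice and -0.32 in WT mice (adjusted p = 0.827). The zinc exporter Slc30a4 gave 1447 and 1657 at ZT16 and 1025 and 1134 at ZT4 in S1/2-/- mice, against 1262 and 787 at ZT16 and 1661 and 1029 at ZT4 in WT mice. On this probe set the S1/2-/- mice separated by time while the WT mice overlapped (difference of the changes 0.91, adjusted p = 0.827). A dim second probe set of Slc30a4 differed by 0.47 in S1/2-/- and 0.74 in WT mice, and its difference of the changes was -0.27, opposite in sign.

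The synaptic zinc transporter Slc30a3 gave 2127 and 2434 at ZT16 and 2009 and 2128 at ZT4 in S1/2-/- mice, against 2111 and 1916 at ZT16 and 2417 and 2474 at ZT4 in WT mice. Both WT mice at ZT16 lay below both at ZT4, and the S1/2-/- mice overlapped, with differences of 0.14 in S1/2-/- and -0.28 in WT mice (log2 difference 0.42, standard error 0.16, adjusted p = 0.827). A dim second probe set of Slc30a3 also had the opposite sign, with 0.15 in S1/2-/- and 2.98 in WT mice and a difference of the changes of -2.83. Slc2a1 differed between ZT16 and ZT4 by 0.42 in S1/2-/- mice (95% interval 0.11 to 0.74) and by -0.053 in WT mice (95% interval -0.36 to 0.26), and the difference of these changes was 0.48 (adjusted p = 0.850). Slc11a2 had the opposite sign, with -0.57 in S1/2-/- and 0.19 in WT mice (adjusted p = 0.827). None of these differences of changes passed the adjusted threshold in limma.

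**Figure D4:**
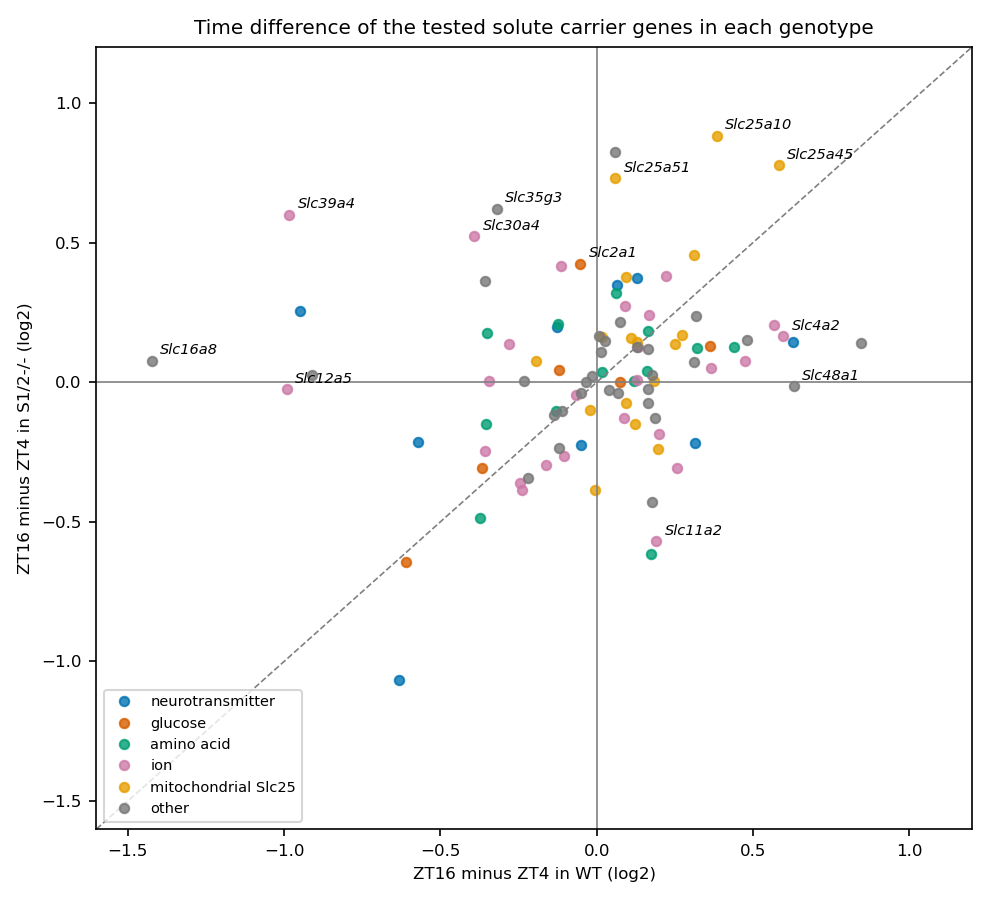
Log2 difference between ZT16 and ZT4 in S1/2-/- mice (vertical axis) against the same difference in WT mice (horizontal axis) for the 101 tested solute carrier genes, coloured by substrate class, with equal changes on the dashed line. Slc25a10 and Slc25a45 lie up and to the right, and Slc39a4 (0.60 in S1/2-/- and -0.98 in WT mice) and Slc16a8 (0.077 in S1/2-/- and -1.42 in WT mice) are far from the line.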

How the data were processed

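RNA of 8 mouse cortices was hybridised to Affymetrix arrays, 1 array per mouse, and the intensities deposited by the authors are MAS5 signals on a linear scale, brought to a common trimmed mean of 500 on every array. Which MAS5 version they ran is not stated in the sources used here. Sources differ on RNA preparation and on age, and the labels' age is used. After 66 control probe sets had been dropped, signals were floored at 1 (64 values) and converted to log2. Of 12422 probe sets, 10833 had 1 gene symbol in the platform annotation, 396 several and 1193 none, and tests covered the 7453 whose mean log2 signal reached the 40th percentile (6.794). Group means of the 4 groups were fitted in limma 3.58.1 (R 4.3.3, eBayes with an intensity trend, 4 residual degrees of freedom), and p-values were adjusted by Benjamini-Hochberg over all 7453. Calls needed more than a 1.5-fold change at an adjusted p below 0.05. Intervals cover 95% and are not adjusted. Dim genes and further probe sets were read from the same fit without a filter. Where nothing says that mice came from separate litters, p-values measure the spread between these mice. The script was tested on simulated data with known changes.

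The named genes are the 3 with the highest mean signal in each substrate class, the called members of each comparison filled up to 5 by lowest p, a list of landmark transporters, and all probe sets of these genes; Slc12a7, Slc2a5, Slc2a8, Slc35a1, Slc35d1, Slc4a5, Slc6a2, Slc6a3, Slc6a4, Slc6a13 and the dim glucose transporters were chosen after their values were seen. The members, classes and lists were chosen with earlier results of these data known. Each gene's class follows its family, and 29 members have several probe sets. Promoter windows and their build are from RefSeq tables. Alternatives were another filter, normalization, pseudocount of 16, variance model, test and replicate block, all probe sets, and each array left out in turn.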

Additional observations from a re-analysis of the deposited data

How the results depend on the processing

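No solute carrier gene was called in any of the 7 comparisons, and this count stayed at 0 when the filter was dropped or set at the 60th percentile, when arrays were quantile normalized or centred on their medians, with 16 added to the signals, without the intensity trend, with all probe sets of the genes, and with the methods' ANOVA at adjusted p. Fitting the groups compared on their own arrays, possible for 4 of the comparisons, also gave 0. Over the arrays left out in turn, the count for S1/2-/- against WT was 0 to 2 over both times and 0 to 1 at ZT16, and both highest counts came without replicate 1 of the WT mice at ZT16 (Slc1a2 and Slc9a3r2 over both times, Slc1a2 at ZT16), where 88 and 154 of all 7453 probe sets were called; the lone mouse of that group is then assumed to vary like the others. With an unadjusted p under 0.05 beside the fold threshold, limma and the methods' ANOVA gave 4 and 4 genes for S1/2-/- against WT over both times (187 and 107 of all 7453 probe sets), 9 and 7 for the genotypes at ZT16 (319 and 195), 2 and 3 for the genotypes at ZT4 (248 and 168), 3 and 1 for ZT16 against ZT4 (152 and 73), 4 and 0 in S1/2-/- mice (210 and 114), 6 and 2 in WT mice (257 and 140), and 5 and 1 for the difference of the changes (298 and 184). For the genes of lowest p, each taken in the comparison that named it, 569 alternative values kept their direction and side of the threshold and 2 passed it (Slc1a2 and Slc9a3r2, over both times), none reversed; Slc1a2 at ZT16 is not among these values. Replicate numbers gave little sign of pairing (correlations -0.00135 to 0.0982), and the replicate block left 0 members called in each comparison. Over all probe sets the block gave 13 calls for the genotypes at ZT4 (7 without it) and 0 at ZT16 (1 without it). It gave 10 for ZT16 against ZT4 in WT mice (1 without it) and 2 for the difference of the changes (0 without it). For S1/2-/- against WT over both times it gave 13 calls, against 19 without it. That count of 19 was 1 to 88 over the arrays left out, with 88 without replicate 1 of the WT mice at ZT16 and 1 without replicate 1 of the S1/2-/- mice at ZT16 or replicate 1 of the WT mice at ZT4. It was 11 with no filter or with median centring, and 0 with no intensity trend or the ANOVA. The causes were not tested. Differences under 1.5-fold could not be called by construction, whatever the number of mice, and 2 mice per group limit the precision.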

Other observations

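The 50 dim solute carrier genes, which include transporters of liver, kidney and gut, had mean log2 signals of 2.75 to 6.79, and none was called in the fit without a filter. At an unadjusted p under 0.05 there were 5 of them for S1/2-/- against WT over both times, 5 at ZT16 and 7 at ZT4, or 10%, 10% and 14%, where 5.96%, 6.36% and 6.46% of all 4969 dim probe sets passed it in the same fit. The genes named here were chosen after their values were seen. Slc25a47, a mitochondrial carrier known from liver, gave 30.0 and 54.4 in S1/2-/- mice at ZT16 and 50.3 and 45.6 at ZT4, against 95.1 and 135 in WT mice at ZT16 and 122 and 108 at ZT4, so all S1/2-/- mice lay below all WT mice (log2 difference -1.37, adjusted p = 0.329 in limma). Slc22a6, the organic anion transporter OAT1 known from kidney, choroid plexus and meninges, gave 24.6 and 25.5 in S1/2-/- mice at ZT16 and 135 and 109 at ZT4, against 41.6 and 29.6 in WT mice at ZT16 and 44.0 and 46.8 at ZT4. Both S1/2-/- mice at ZT4 were above all other arrays (ZT16 minus ZT4 in S1/2-/- mice -2.28, adjusted p = 0.567 in limma).

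Organic anion carriers of the Slco family fall outside the symbol rule. Slco3a1, the one of them that passed the filter, gave 316 and 334 in S1/2-/- mice at ZT16 and 322 and 442 at ZT4, against 390.1 and 315 in WT mice at ZT16 and 358 and 197 at ZT4, and its genotypes overlapped.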
